A study of Mus musculus with 3 samples.

Results

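Complement components and their receptors were followed in sorted myeloid cells of the mouse hippocampus. The set holds 9 genes, taken by symbol from the 31053 listed for each run: the C1q chains C1qa, C1qb and C1qc, the components C4b and C3, the anaphylatoxin receptors C3ar1 and C5ar1, and the integrin chains Itgam and Itgb2. The mice were Cx3cr1CreERT2/+, Rosa26tdTomato/+ and NestinTK-eGFP/+. Tamoxifen at 100 mg/kg on 4 days switched on tdTomato through a Cre recombinase driven by Cx3cr1, a gene of microglia and related macrophages, so every sample carries all 3 alleles and the same treatment. The 3 droplet runs form 1 group and hold cells of 12 animals, 6 of each sex. Age and the assignment of animals to runs are not given in the sources used here, and without a second group the comparisons are between populations of cells inside the runs (n = 3 runs).

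Complement is a cascade of plasma and tissue proteins that tags particles and cells. C1q, assembled from A, B and C chains, binds the target and starts the classical pathway. C4 and C2 then form the enzyme that cleaves C3, and C3 fragments coat the target. The small fragments C3a and C5a act on the receptors encoded by C3ar1 and C5ar1. Itgam (CD11b) and Itgb2 (CD18) pair as complement receptor 3, which takes up C3-coated material, and microglia are known for making C1q and for using this receptor to remove synapses.

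Of 20376 barcodes, 19791 were kept: those with 1000 or more unique molecular identifiers (UMIs), 500 or more genes and a mitochondrial share of 10% or less. The median kept cell had 4425 UMIs in run 1, 3438 in run 2 and 3696 in run 3. The runs shared 26 barcodes. Cells were placed in populations by marker detection. Reference microglia, which met no other gate and had at least 2 of P2ry12, Tmem119, Siglech, Gpr34, Olfml3 and Sall1, numbered 6612, 6496 and 5753 in the 3 runs. The smaller populations had 72, 36 and 57 border-associated macrophages, 37, 26 and 44 MHC class II-high cells, and 39, 16 and 19 cycling cells. There were 51, 23 and 28 interferon-responsive cells and 52, 41 and 27 disease-associated cells. Disease-associated cells had at least 3 of Spp1, Lpl, Gpnmb, Lgals3, Cst7, Igf1 and Csf1. Gpnmb had 0 UMIs in those of run 2. Ccl3 Ccl4-high cells numbered 13, 19 and 16, and cells with Emp3, Fxyd5 and Tnfsf13b numbered 25, 12 and 15. Levels are UMI counts summed per run and population, per 1000000 UMIs (CPM). Changes are log2 differences from edgeR's quasi-likelihood test, ± SE, with p adjusted over all genes tested and 0.05 as the threshold. A sum combines how many cells hold a transcript with how many UMIs each holds, so shares of cells with a UMI are given where a result turns on them.

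The C1q genes lie side by side on mouse chromosome 4, all on the minus strand and within 18675 bp (GRCm38, GENCODE M21): C1qb at chr4:136880129-136886187, C1qc at chr4:136889804-136893065 and C1qa at chr4:136895917-136898803. Itgam lies at chr7:128062640-128118491, C5ar1 at chr7:16246743-16259540, C3ar1 at chr6:122847138-122856161, Itgb2 at chr10:77530252-77565708, C4b at chr17:34728380-34743882 and C3 at chr17:57203970-57228136. RefSeq promoter sequence (GRCm38.p6) was matched for 6 of the 9 members. Of these 6, the stretches just upstream of the 4 genes that held a marked motif are shown. C5ar1 and C3 held none and are not shown. In the results below, both C1q chains shown kept a high level in nearly every population. C3ar1 and C5ar1 rose in the same 3 populations, and Itgam fell in 2 of those 3. No link between motifs and levels was tested. Each stretch is written 5′ to 3′ on the strand of the gene and leaves out bases inside the annotated gene. Capitals mark GAGGAA or its reverse complement TTCCTC, the core letters bound by ETS factors such as PU.1, and TGACTCA, the core letters bound by AP-1.
C1qb (chr4:136886201-136886450, minus strand): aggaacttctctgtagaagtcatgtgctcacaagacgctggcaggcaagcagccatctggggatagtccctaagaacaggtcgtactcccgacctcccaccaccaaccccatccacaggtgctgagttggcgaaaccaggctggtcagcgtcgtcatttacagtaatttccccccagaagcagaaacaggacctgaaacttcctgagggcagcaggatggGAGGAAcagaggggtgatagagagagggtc
C1qc (chr4:136893066-136893164, minus strand): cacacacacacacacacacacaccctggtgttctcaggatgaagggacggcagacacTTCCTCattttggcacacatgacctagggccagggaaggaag
C3ar1 (chr6:122856162-122856407, minus strand): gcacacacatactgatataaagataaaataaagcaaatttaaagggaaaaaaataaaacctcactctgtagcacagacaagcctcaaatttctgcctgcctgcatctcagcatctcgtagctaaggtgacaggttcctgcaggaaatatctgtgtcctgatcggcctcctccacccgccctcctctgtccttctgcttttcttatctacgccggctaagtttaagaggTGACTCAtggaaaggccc
Itgam (chr7:128062390-128062639, plus strand): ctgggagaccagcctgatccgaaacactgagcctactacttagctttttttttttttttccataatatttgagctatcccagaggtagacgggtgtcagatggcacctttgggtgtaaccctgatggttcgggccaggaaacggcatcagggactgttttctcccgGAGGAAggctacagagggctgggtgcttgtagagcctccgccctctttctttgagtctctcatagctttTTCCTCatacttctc
The search covered 250 bases before the RefSeq start on both strands. GAGGAA was found in C1qb at -30 to -25, in C1qc on the opposite strand at -193 to -188, and in Itgam at -84 to -79 and, on the opposite strand, at -15 to -10. TGACTCA was found in C3ar1 alone of the 6, at -22 to -16. Of 32851 mouse promoters of the same length, 23.3% held GAGGAA and 4.46% held TGACTCA. The E-box letters CACGTG, held by 6.02% of promoters, were in none of the 6 windows. The searched motifs do not overlap each other, and a match describes letters only.

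C1q made up several percent of the RNA counted in reference microglia. C1qa had 10743, 12764 and 10152 CPM in runs 1, 2 and 3, C1qb had 9046, 10847 and 8543 CPM, and C1qc had 7719, 9088 and 6791 CPM. By UMI count C1qa was the fifth and C1qb the sixth most abundant of all genes in each run, and C1qc ranked 7, 8 and 8. Together the chains took 2.75%, 3.27% and 2.55% of UMIs (2.86% ± 0.37, SD, n = 3). Run 2 was the highest for each chain, by 1.26 to 1.34 times over the lowest run, while the median of 3385 genes at 50 CPM or more differed 1.23 times between its highest and lowest run. No reference cell in any run lacked a C1q UMI. With each cell thinned to 2000 UMIs, the median cell held 54, 64 and 50 C1q UMIs, the 5th percentile was 37, 44 and 34, and the 95th percentile was 77, 91 and 72. The variance of the thinned C1q count was 2.77, 3.21 and 2.73 times its mean, where counting alone gives 1.

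The receptors were expressed at far lower counts. C3ar1 had 172, 190 and 158 CPM in reference microglia. C5ar1 had 81.6, 141 and 96.0 CPM, and its highest run stood 1.72 times above its lowest, the widest run difference among the 7 members with more than 1 CPM. Itgam had 442, 417 and 533 CPM, and Itgb2 had 231, 281 and 213 CPM. Capture can differ between genes, so a difference between 2 genes in UMIs is not by itself a difference in molecules present in the cell. C4b and C3 were nearly silent, with 0.713, 0.896 and 0.761 CPM (60 UMIs over the runs) and 0.130, 0.0427 and 0.134 CPM (8 UMIs).

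**Figure D1:**
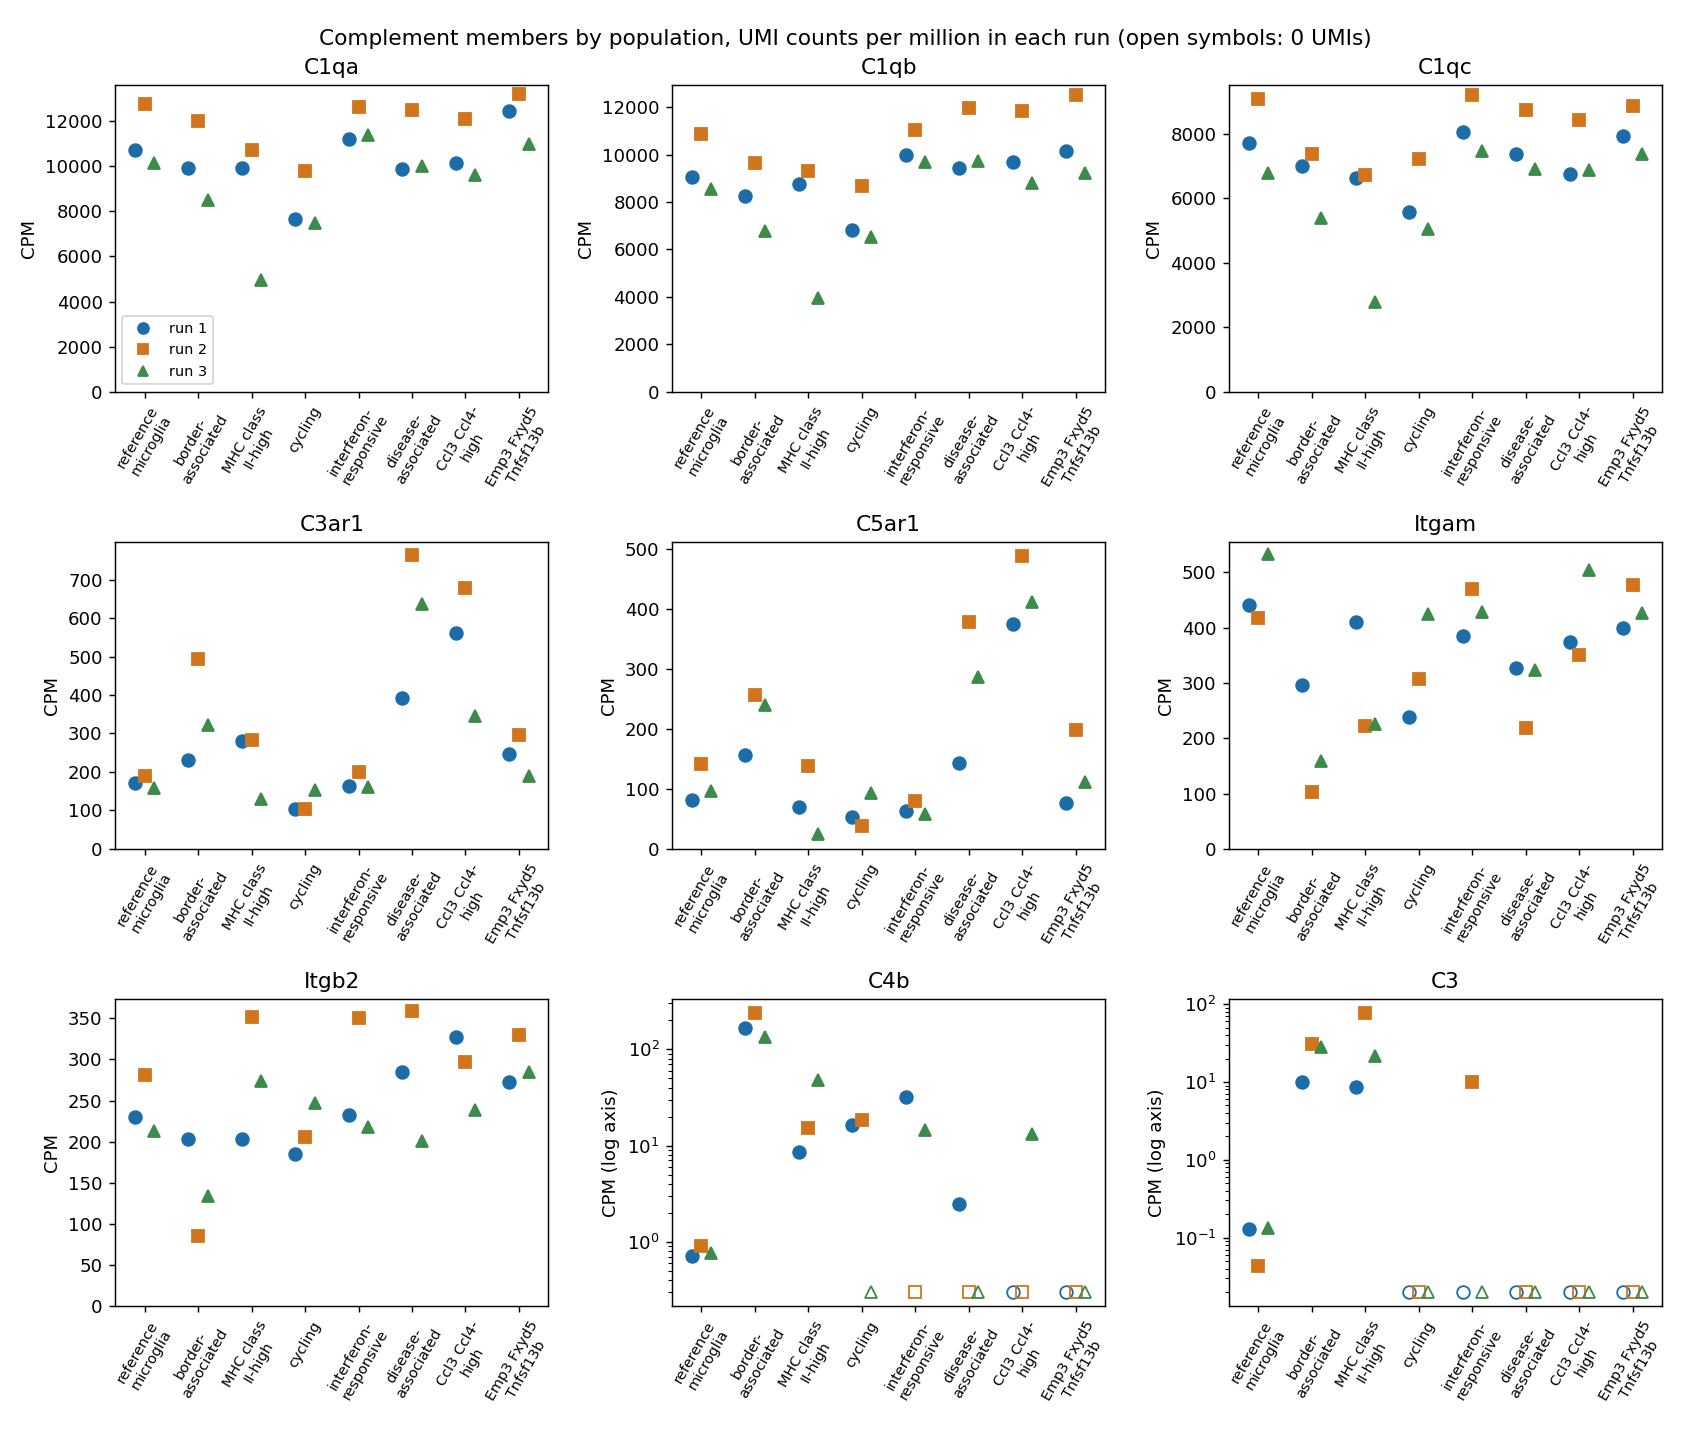
CPM of the 9 members (y axis, per panel; log axis for C4b and C3) in reference microglia and 7 other populations (x axis), 1 symbol per run. C1q stays near its reference level in most populations, C3ar1 and C5ar1 stand high in disease-associated, Ccl3 Ccl4-high and border-associated cells, and C4b is at 134 to 238 CPM in border-associated macrophages against under 1 CPM in reference microglia; open symbols are 0 UMIs, drawn at the foot of the axis.

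Across populations C1q was the most even of the set. Summed over the chains, the mean was 30899 ± 3517 CPM (SD, n = 3 here and in the next values) in Emp3 Fxyd5 Tnfsf13b-positive cells, 30221 ± 2328 in interferon-responsive cells, 28863 ± 3766 in disease-associated cells, 28564 ± 3720 in reference microglia and 28078 ± 3785 in Ccl3 Ccl4-high cells. Lower in the order came border-associated macrophages at 24963 ± 4201, cycling cells at 21593 ± 3563 and MHC class II-high cells at 21250 ± 8312. Neighbours in this order differed by less than the spread between runs. Cells with markers of other lineages varied in C1q. Ttr-rich cells (20 or more Ttr UMIs), 33, 32 and 4 in number, had C1q sums of 19658, 16676 and 9733 CPM. Cells carrying astrocyte transcripts, 46, 6 and 3 in number, had 24294, 30485 and 18593 CPM. The 2 neuron marker-positive cells, both in run 1, had 28436 CPM. Lowest of these gates by mean were the T and NK and the monocyte or neutrophil marker-positive cells. T and NK marker-positive cells, 2, 3 and 8 in number, had C1q sums of 6033, 9804 and 2479 CPM, and their microglia markers summed to 4542, 5829 and 1129 CPM against 12143, 15089 and 12040 in reference microglia. Monocyte or neutrophil marker-positive cells, 3, 4 and 3 in number, had 2, 0 and 4 C1qa UMIs, or 551, 0 and 187 CPM. Their C1qb UMIs were 0, 0 and 19, the last at 888 CPM, and their C1qc UMIs were 0, 0 and 1. In runs 1 and 2 a count of 0 UMIs allowed up to 827 and 77.2 CPM at 3 UMIs, which covers counting error only. Of the T and NK marker-positive cells, 1 of 2 in run 1, 0 of 3 in run 2 and 1 of 8 in run 3 held both Xist and Y-linked UMIs. How much of these C1q levels came from free RNA or from droplets that also held a microglial cell was not tested. No background level of C1q is therefore set.

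**Figure D2:**
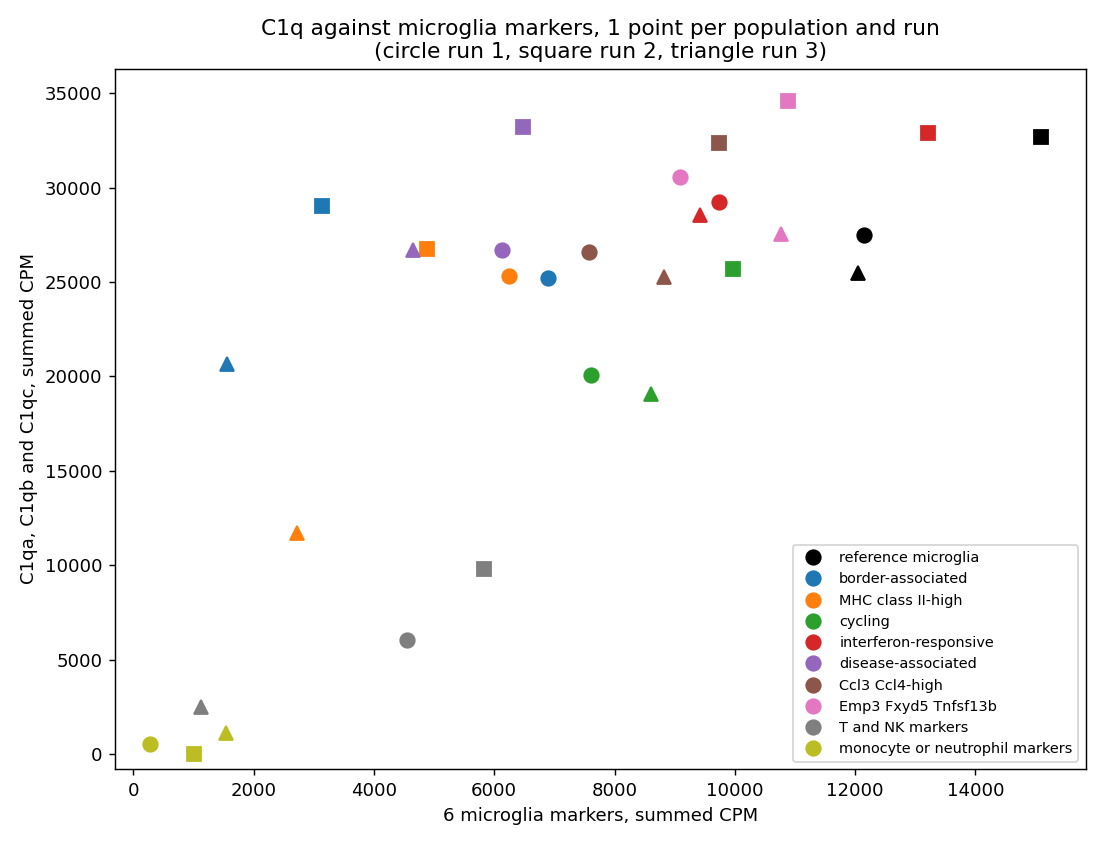
Summed CPM of C1qa, C1qb and C1qc (y axis) against summed CPM of the 6 microglia markers (x axis), 1 symbol per population and run. Border-associated macrophages of run 3 hold 20647 CPM of C1q with 1562 CPM of microglia markers, while T and NK or monocyte and neutrophil marker-positive cells lie at the foot.

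Border-associated macrophages, the macrophages of meninges and perivascular spaces, kept C1q but carried a different set of other complement genes. C4b had 166, 238 and 134 CPM there (116, 39 and 38 UMIs) against under 1 CPM in each reference sum, a change of 7.92 ± 0.28 (adjusted p = 9.94e-168). The ratio of pooled levels was 215 (95% interval 160 to 292, counting error only). C4b sits beside the near-identical copy C4a, which was not analysed here, so the attribution of reads to C4b is uncertain. With cells thinned to 2000 UMIs, C4b was found in 23.6%, 25% and 16.4% of border-associated macrophages and in 0.153%, 0.114% and 0.125% of reference microglia (unthinned 52.8%, 41.7% and 28.1% at medians of 7177, 4326 and 4323 UMIs against 0.333%, 0.185% and 0.278% at 4392, 3423 and 3671). C3, the central component, was seen in few cells, with 7, 5 and 8 UMIs in 4, 2 and 2 cells, or 10.0, 30.5 and 28.2 CPM. Its change was 7.56 ± 0.81 (adjusted p = 4.72e-19), and its pooled ratio was 167 (70.4 to 438).

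Both anaphylatoxin receptors were higher and the integrin chain lower in border-associated macrophages. C3ar1 had 231, 494 and 321 CPM (1.06 ± 0.20, adjusted p = 2.91e-06), and C5ar1 had 156, 256 and 240 CPM (1.18 ± 0.20, adjusted p = 1.27e-07). The lowest macrophage sum of each receptor lay above the highest reference sum. Itgam fell to 297, 104 and 159 CPM (-1.18 ± 0.22, adjusted p = 2.22e-06), below every reference sum. Its partner Itgb2 had 203, 85.3 and 134 CPM (-0.57 ± 0.22, adjusted p = 0.0587), lower in 3 of 3 runs but not past the threshold. The C1q chains had changes of -0.014 ± 0.26, -0.073 ± 0.26 and -0.12 ± 0.25 for C1qa, C1qb and C1qc, none past the threshold. In CPM all of them were lower than in that run's reference cells in 3 of 3 runs. Thus 5 of 9 members passed the test, 4 higher and 1 lower, where 13.2% of 11455 genes passed in either direction. C3 and C4b could pass the filter on low counts only through a population where they are high (C4b did in 4 comparisons and C3 in 2, the other 7 members in all), so their calls are no support by count. Of the other 7 members 3 passed.

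The gate for these macrophages also took in cells with microglial RNA. In run 1, 20 of its 72 cells held both Xist and Y-linked UMIs, as a droplet with cells of both sexes would, against 1 of 36 and 4 of 57 in runs 2 and 3, and the microglia markers summed to 6895, 3133 and 1562 CPM. Among the 21, 21 and 39 macrophages with under 2 UMIs of P2ry12 and Tmem119, C1qa was at 9142, 11094 and 9399 CPM, against 10743, 12764 and 10152 CPM in reference microglia. The same cells had 290, 286 and 102 CPM of C4b, 355, 259 and 283 CPM of C5ar1, and 74.8, 27.3 and 113 CPM of Itgam. In them Itgb2 passed the threshold too, at -1.16 (adjusted p = 4.54e-05), as it did without run 1 (-0.90, adjusted p = 0.000609), without cells holding Xist and Y-linked UMIs (-0.73, adjusted p = 0.00158), with cells thinned to 2000 UMIs (-1.12, adjusted p = 0.00456) and with 1 fewer marker per gate (-0.61, adjusted p = 0.0185).

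Disease-associated cells had both anaphylatoxin receptors higher and Itgam lower than reference microglia, with C1q near its reference level. C3ar1 had 392, 765 and 636 CPM against 172, 190 and 158 in reference microglia (1.72 ± 0.11, adjusted p = 2.28e-52). C5ar1 had 142, 378 and 285 CPM against 81.6, 141 and 96.0 (1.26 ± 0.14, adjusted p = 5.02e-17). In every run both receptors were higher than in that run's reference cells, and run 1 was the lowest of the 3 for each. Itgam had 327, 218 and 324 CPM against 442, 417 and 533 (-0.63 ± 0.12, adjusted p = 5.08e-06), with no overlap between the groups. Itgb2 had 284, 360 and 201 CPM (0.26 ± 0.13, adjusted p = 0.176), so the chains of complement receptor 3 had fitted changes of opposite sign, of which that of Itgam passed the threshold and that of Itgb2 did so only with 1 fewer marker per gate (0.29, adjusted p = 0.00230). C1qa changed by -0.042 ± 0.093, C1qb by 0.14 ± 0.09 and C1qc by -0.017 ± 0.092, none past the threshold, although with DESeq2's size factors C1qb passed it at 0.21 (adjusted p = 0.0421). Of 7 members tested 3 passed, against 15.6% of 11249 genes.

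Ccl3 Ccl4-high cells, which met the chemokine gate but not that of disease-associated cells, showed the receptors high as well. C3ar1 had 561, 678 and 345 CPM (1.55 ± 0.19, adjusted p = 3.53e-13) and C5ar1 had 374, 488 and 411 CPM (1.97 ± 0.22, adjusted p = 1.48e-16). All 3 sums of each lay above every reference sum. Itgam, at 374, 350 and 504 CPM, did not pass the threshold, and the C1q chains and Itgb2 did not either. The 2 of 7 members called compare with 2.75% of 11065 genes. These calls rest on 36, 64 and 26 UMIs of C3ar1 and 24, 46 and 31 UMIs of C5ar1.

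The activated populations were set against each other directly. C3ar1 differed by 0.11 ± 0.23 between disease-associated and Ccl3 Ccl4-high cells (adjusted p = 0.847), and C5ar1 was lower in disease-associated cells by -0.75 ± 0.24, in 3 of 3 runs, with an adjusted p of 0.0511. None of 7 members passed, where 9.46% of 2041 genes did. At an unadjusted p under 0.05, 459 genes passed with edgeR, and DESeq2's Wald test called 0 members too. By mean level C3ar1 ran from disease-associated (597 ± 189 CPM, SD, n = 3) through Ccl3 Ccl4-high (528 ± 169) and border-associated (349 ± 133) to reference microglia (173 ± 16) and cycling cells (119 ± 29). C5ar1 ran from Ccl3 Ccl4-high (424 ± 58 CPM) through disease-associated (268 ± 119) and border-associated cells (217 ± 54) to reference (106 ± 31) and cycling cells (61.2 ± 29.1). Run values of the 3 populations at the top overlapped for each receptor, except that border-associated and Ccl3 Ccl4-high runs were apart for C5ar1.

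**Figure D3:**
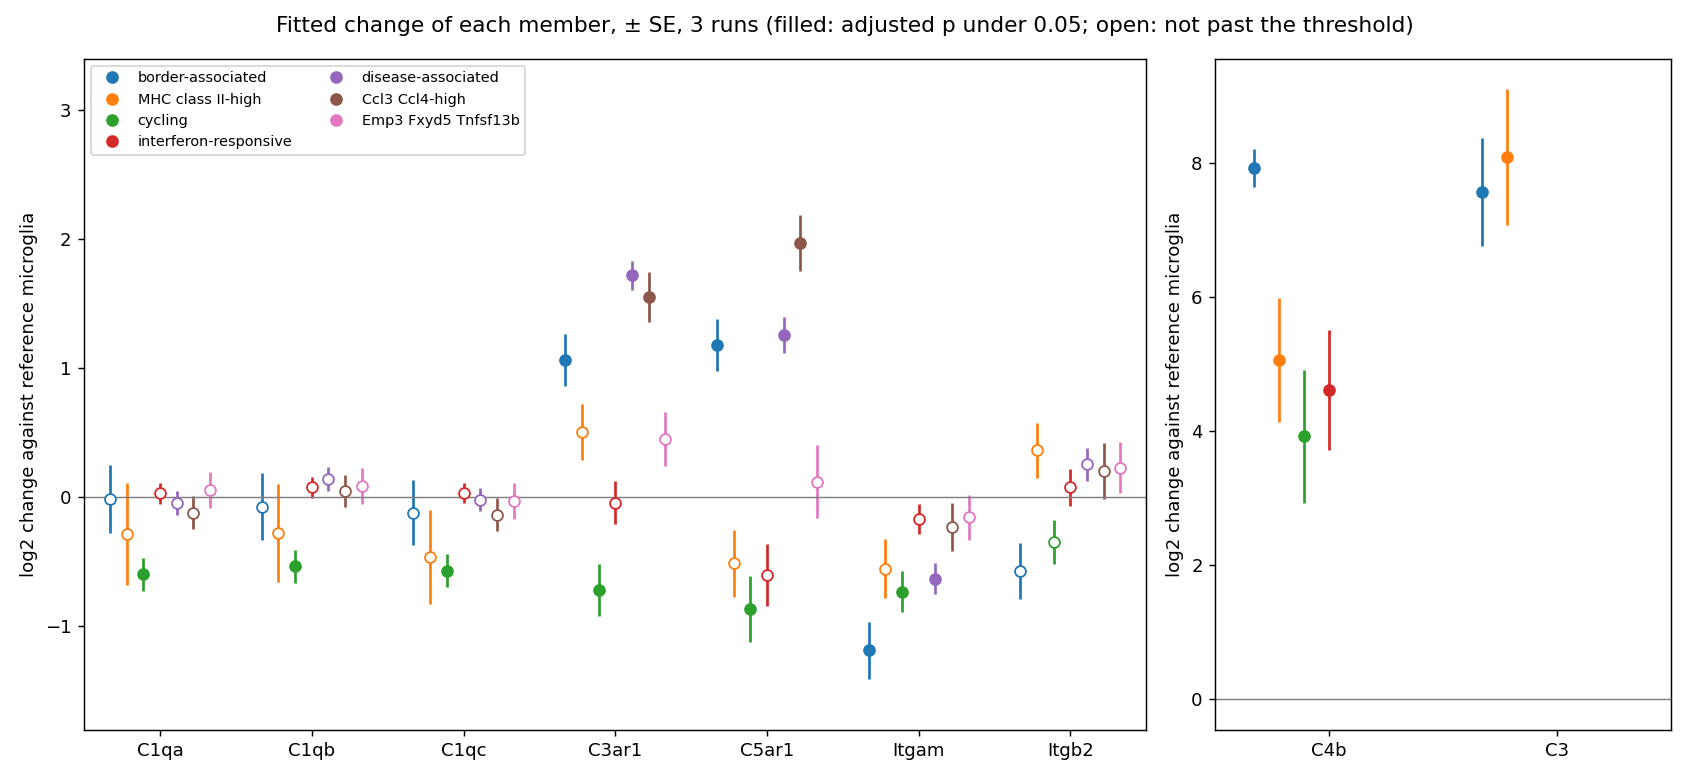
Fitted log2 change ± SE against reference microglia (y axis) for each member (x axis) in 7 populations (colours); filled symbols have an adjusted p under 0.05. C3ar1 and C5ar1 are filled above 0 in border-associated, disease-associated and Ccl3 Ccl4-high cells, Itgam is filled below 0 in 3 populations, and C1q is filled only in cycling cells.

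Cycling cells were the single population in which C1q passed the test, and its share of UMIs was lower there. C1qa had 7667, 9783 and 7480 CPM (-0.60 ± 0.13), C1qb had 6806, 8673 and 6518 CPM (-0.54 ± 0.13) and C1qc had 5588, 7209 and 5055 CPM (-0.57 ± 0.13), with adjusted p of at most 0.000422. Each chain was lower in CPM than in the reference cells of its run in 3 of 3 runs. Cycling cells were deeper, with medians of 6940, 6452 and 5895 UMIs against 4392, 3423 and 3671 in reference microglia. Counted per cell, C1qa was not lower: 39, 16 and 19 cycling cells held 2323, 1049 and 879 UMIs of it. The 6612, 6496 and 5753 reference cells held 331516, 299201 and 226752. All 38, 16 and 19 cycling cells that could be thinned to 2000 UMIs held UMIs of each chain, so the lower C1q level was not one of fewer cells with the transcript. C3ar1 (-0.72 ± 0.20), C5ar1 (-0.86 ± 0.26) and Itgam (-0.73 ± 0.16) fell as well. C4b rose (3.92 ± 1.00) on 5, 2 and 0 UMIs, a pooled ratio of 16.9 (6.53 to 37.1). The C4b call was lost without run 1 (adjusted p = 0.463) and with all other kept cells as reference (adjusted p = 0.195). Without run 2, with stricter cells, with thinned cells, without Xist and Y-linked cells or with 1 fewer marker per gate, C4b was too scarce to be tested. In all, 7 of 8 members tested passed, 6 of 7 without C4b, against 18.8% of 11323 genes. The microglia markers were lower in the same sums, at 7615, 9970 and 8603 CPM against 12143, 15089 and 12040, and the part of that shift in the result was not tested. Without the run as a block 4 members passed, and 4 passed without run 2 and without run 3, where C1qa had an adjusted p of 0.0899. C3ar1 lost its call without run 1 (-0.64) and without run 2 (-0.59, adjusted p = 0.0747), and C5ar1 without run 2 (adjusted p = 0.297). With 1 fewer marker per gate, which took in 77, 46 and 46 cells, C3ar1 was at 0.058 (adjusted p = 0.844) and C5ar1 at -0.20 (adjusted p = 0.484), while C1qa (-0.31), C1qb (-0.25), C1qc (-0.27) and Itgam (-0.33) still passed as lower.

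MHC class II-high cells, which carry genes of antigen presentation, held C4b and C3 but split by run in C1q. C1qa had 9909 and 10721 CPM in runs 1 and 2 and 4935 CPM in run 3, where C1qb had 3966 and C1qc 2789 CPM. Run 3 was also the run with the fewest microglia markers in this gate (6251, 4887 and 2727 CPM). Over 3 runs the chains changed by -0.29 ± 0.40, -0.27 ± 0.38 and -0.46 ± 0.36 without passing, although each was lower in CPM in 3 of 3 runs. In the 22 such cells of run 3 with under 2 UMIs of P2ry12 and Tmem119, C1qa was at 2446 CPM, below the border-associated macrophages chosen the same way. Markers of other cells moved with this gate. The border macrophage markers, of which 3, 5 and 4 of 8 were detected and Cd163, Lyve1 and Cbr2 were at 0 in each run, summed to 194, 947 and 467 CPM against 6.61, 3.33 and 5.55 in reference microglia. The monocyte and neutrophil markers, of which 2, 1 and 4 of 11 were detected and S100a9, Retnlg, Ly6c2, Chil3, Ngp, Camp and Ltf were at 0 in each run, summed to 125, 267 and 619 CPM against 4.41, 3.28 and 5.55. Their part in the levels of C1q, C4b and C3 was not tested.

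C4b had 8.63, 15.3 and 48.3 CPM in MHC class II-high cells (2, 2 and 18 UMIs; 5.06 ± 0.92, adjusted p = 1.69e-06), and without run 3 the call was lost (adjusted p = 0.355). C3 had 8.63, 76.4 and 21.5 CPM (8.08 ± 1.02, adjusted p = 1.47e-13). Its 10 UMIs in run 2 came from 1 cell, its 8 in run 3 from 3 cells and its 2 in run 1 from 1 cell, so the level describes a few cells. C3ar1 (0.51 ± 0.22, adjusted p = 0.117) and Itgam (-0.55 ± 0.23, adjusted p = 0.103) did not pass. C3ar1 passed as higher without run 3 (0.76, adjusted p = 0.0317), with 1 more marker per gate (0.57, adjusted p = 0.0454) and with 1 fewer (0.33, adjusted p = 0.0303). Itgam passed as lower without run 1 (-0.87, adjusted p = 0.0123), with thinned cells (-0.87, adjusted p = 0.0208) and with 1 more marker per gate (-1.18, adjusted p = 8.86e-06). The 2 of 9 members called were C4b and C3, which entered the test through a population where they are high, so nothing is read from that count beside the 12.3% of 11323 genes called.

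Interferon-responsive cells differed from reference microglia in C4b alone among the members tested. It had 31.8, 0 and 14.5 CPM (9, 0 and 2 UMIs in 3, 0 and 2 cells; 4.61 ± 0.90, adjusted p = 2.46e-05), and without run 1 no member passed. C5ar1 was at 63.5, 80.0 and 58.2 CPM (-0.60 ± 0.24, adjusted p = 0.274), lower than in reference cells in 3 of 3 runs. C1qa, at 11199, 12650 and 11390 CPM, did not pass. Of 11192 genes 2.33% passed, and nothing is read from the count of 1 in 8 members, since C4b entered the test through a population where it is high. In cells with Emp3, Fxyd5 and Tnfsf13b none of 7 members passed, where 0.604% of 11091 genes did by edgeR (771 at an unadjusted p under 0.05). DESeq2's Wald test called no member there either.

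Immediate early-high cells could be described in run 3 only, where 99 cells had 9610 CPM of C1qa, 174 of C3ar1, 123 of C5ar1 and 459 of Itgam. Runs 1 and 2 had 1 and 5 such cells. Cells carrying astrocyte transcripts, 46 of them in run 1, had 43.0 CPM of C4b from 15 UMIs, and 6 and 3 such cells in runs 2 and 3 had 0 C4b UMIs. Astrocytes are a known source of C4b in brain. In run 1 those sums also held 1854 CPM of border macrophage markers, against 0 in runs 2 and 3, and their part in the C4b level was not tested.

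Reference microglia were also divided by sex-linked transcripts. In the 3 runs, 2597, 3429 and 2404 cells had at least 2 Xist UMIs and no Y-linked UMI. They were set against 2249, 1294 and 1572 cells with at least 1 Y-linked UMI and no Xist UMI. Reference cells that met neither rule were left out. None of 7 members passed, where 0.479% of 11279 genes did (1081 at an unadjusted p under 0.05 with edgeR, and 0 members by DESeq2's Wald test). The fitted changes lay between -0.07 and 0.11, and the one of greatest size was that of Itgb2 (0.11 ± 0.04, adjusted p = 0.390), higher in Xist-positive cells in 3 of 3 runs.

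Ratios among the C1q chains were steady across runs. In reference microglia C1qa gave 39.3% ± 0.46 (SD, n = 3) of C1q UMIs, C1qb 33.2% ± 0.32 and C1qc 27.5% ± 0.75. The C1qb to C1qa ratio was 0.842, 0.850 and 0.842 in the 3 runs, and that of C1qc to C1qa was 0.719, 0.712 and 0.669, lowest in run 3. From 3 paired runs an exact permutation test cannot go below p = 0.25, so the ratios are described without a test. Capture can differ between chains, so the ratio of counts is compared across populations only.

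The chain balance shifted toward C1qb in the activated populations. The C1qb to C1qa ratio was 0.954, 0.958 and 0.970 in disease-associated cells, a log2 difference of 0.19 from the reference of the same run (0.17 to 0.20 over the runs). It was 0.955, 0.979 and 0.916 in Ccl3 Ccl4-high cells (0.17, from 0.12 to 0.20). Every value in both populations lay above every reference value. Border-associated macrophages had 0.833, 0.804 and 0.796 (-0.059, from -0.081 to -0.016), the other direction in 3 of 3 runs. For C1qc to C1qa the clearest shift was in MHC class II-high cells, at 0.669, 0.628 and 0.565, with log2 differences of -0.24 to -0.10 from the reference of the same run.

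Depth and mitochondrial share moved with the same ratio inside reference microglia. From the lowest through the middle to the highest tertile of cells by UMIs, the C1qb to C1qa ratio went from 0.796 through 0.846 to 0.864 in run 1, from 0.787 through 0.849 to 0.883 in run 2 and from 0.794 through 0.843 to 0.866 in run 3. By mitochondrial share the lowest and highest tertiles had 0.807 and 0.874 in run 1, 0.827 and 0.868 in run 2 and 0.810 and 0.869 in run 3. Disease-associated cells were deeper than reference cells, with medians of 6799, 5269 and 5604 UMIs, and had median mitochondrial shares of 3.94%, 3.28% and 3.89%. Their ratio lay above that of the deepest tertile of reference cells in each run. That tertile was still shallower than they were, with medians of 5690, 4497 and 4695 UMIs. The tertile highest in mitochondrial share had medians of 3.79%, 3.18% and 3.80%, also below theirs. Tertiles below these cells in both measures cannot separate depth from state, and the part of either in the shift was not tested. Ccl3 Ccl4-high cells had medians of 4649, 4704 and 4280 UMIs and also lay above the deepest tertile in each run. When cells were thinned to 2000 UMIs before gating, 13, 11 and 9 disease-associated cells were left with a ratio of 0.911 ± 0.112, and Ccl3 Ccl4-high cells had 1.01 ± 0.12. The log2 differences from the reference of the same run then spanned 0.0020 to 0.30 in the former and 0.10 to 0.42 in the latter.

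**Figure D4:**
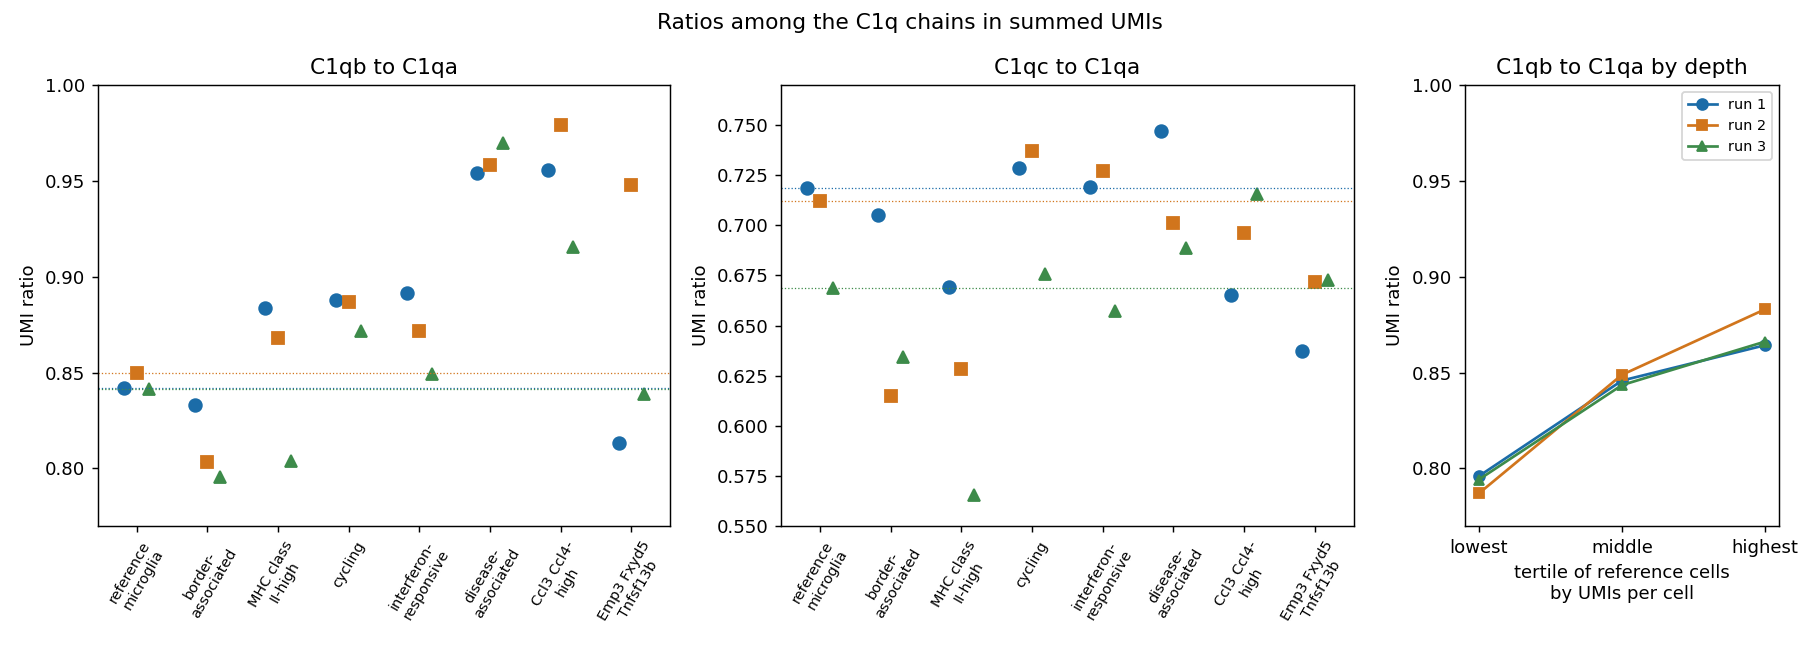
UMI ratios of C1qb to C1qa (left) and C1qc to C1qa (middle) by population, 1 symbol per run with that run's reference as a dotted line, and C1qb to C1qa in tertiles of reference cells by depth (right). Disease-associated and Ccl3 Ccl4-high cells stand at 0.916 to 0.979, above all tertiles of the reference cells, which span 0.787 to 0.883.

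From cell to cell the counts of the chains were positively correlated. In thinned reference cells C1qa and C1qb counts correlated at r = 0.357, 0.371 and 0.334 over 6537, 6137 and 5594 cells of 1 library each, a description across cells that share depth by construction. C1qa with C1qc gave 0.288, 0.346 and 0.276. Counting noise lowers these values of r. The variance of thinned C1qa counts was 1.76, 2.00 and 1.80 times their mean, where counting alone gives 1. How far the chains vary together beneath that noise was not tested. Itgam and Itgb2, whose proteins pair, had r of 0.019, -0.00093 and -0.0062 at counts of about 1 UMI or none per cell, where a weak correlation is not informative. The share of each chain among a cell's C1q UMIs varied 1.2 to 1.5 times as much as binomial counting gives.

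Over 24 sums of 8 populations, the genes whose level most resembled that of C1q, among 3239 genes at 50 CPM or more, were Itm2b (r = 0.92), Hexa (0.83), Itm2c (0.80), Unc93b1 (0.79) and Tmem50a (0.79). The nearest gene to C3ar1 was C5ar1 (0.88), followed by Ctsb (0.88) and Cd83 (0.87), and C5ar1 was nearest to C3ar1, then to Cd83 (0.77) and Dnase2a (0.76). Itgam most resembled Nav2 (0.89), Csmd3 (0.88) and Col27a1 (0.88), not Itgb2, whose nearest genes were Abcg1 (0.75), Glrx3 (0.73) and Hebp1 (0.71). C4b was nearest to Ms4a6c (0.80), Ifitm2 (0.79) and Fcgrt (0.75), and C3 to Cxcl9 (0.88), Mgl2 (0.87) and Wfdc17 (0.87). For C3 the likeness rests on 20 UMIs in border-associated macrophages and 20 in MHC class II-high cells. It had 1 UMI in interferon-responsive cells and 0 in cycling, disease-associated, Ccl3 Ccl4-high and Emp3 Fxyd5 Tnfsf13b-positive cells. These correlations are descriptive, and the 8 sums of a run share a library.

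Other complement genes were read from a list of 46, of which 45 were listed in the runs. In reference microglia the regulator Cr1l had 121 ± 5.4 CPM (SD, n = 3), the second C5a receptor C5ar2 had 95.5 ± 3.2, and the C1q-binding proteins Calr, Lrp1 and C1qbp had 801 ± 19, 343 ± 62 and 93.4 ± 5.5. Components of the classical pathway other than C1q were scarce: C1ra had 1.58 CPM and C2 0.381 CPM.

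In border-associated macrophages 6 of 18 tested genes of the list rose and 2 fell, where 7.78% of all genes tested were called higher and 5.4% lower. Those that rose included C2 (39.6 CPM, change 6.73 ± 0.63), which forms the C3-cleaving enzyme with C4, and the lectin pathway gene Fcna (84.1 CPM). The others were the collectin Colec12 (75.8 CPM), properdin Cfp (57.3 CPM), Cd93 (49.7 CPM) and the regulator Cd55 (31.3 CPM). C2, Fcna, Colec12, Cd93 and Cd55 were tested in this comparison alone, at 0.0257 to 0.381 CPM in reference microglia, and passed the filter on low counts only through the macrophages where they are high, so the 6 calls are no support by count. C5ar2 (-0.84 ± 0.25) and Lrp1 (-0.81 ± 0.22) fell, so C5ar2 and C5ar1 moved in opposite directions there. In disease-associated cells 4 of 13 rose: Itgax, the integrin chain of complement receptor 4, by 4.29 ± 0.42 to 66.8 CPM, Calr by 0.89 ± 0.09, C1qbp by 0.81 ± 0.16 and Lrp1 by 0.35 ± 0.11. C1qbp was higher in CPM than in the reference cells of the same run in 2 of 3 runs, the others in 3 of 3. Of all genes 7.29% were called higher in disease-associated cells.

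In MHC class II-high cells Cfp (5.87 ± 0.76) and Itgax (4.10 ± 0.57) rose, 2 of 13 tested, where 7.4% of all genes were called higher. In cycling cells Cr1l (-0.59 ± 0.23) and Calr (-0.69 ± 0.15) fell, 2 of 13, where 9.06% of all genes were called lower. Between disease-associated and Ccl3 Ccl4-high cells Calr was higher in the former by 0.74 ± 0.17, 1 of 5 tested, where 3.58% of all genes were called higher. In interferon-responsive cells, Emp3 Fxyd5 Tnfsf13b-positive cells and the comparison by sex-linked transcripts no gene of the list passed.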

How the data were processed

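The deposited files are raw counts of UMIs per gene and barcode, 1 table for each of 3 droplet runs made with 10x Genomics reagents. Software version 3.0.2 made the table of run 1 and version 3.1.0 those of runs 2 and 3, per the file headers, and the submitters' processing notes name Cell Ranger, Seurat 4.0 and mm10. Members, lists, gates and tests were chosen with earlier results of these data known. Each cell went to the first marker gate it met. No doublet caller was run, since an earlier one had not worked on these data, and cells with Xist and Y-linked UMIs (3.39%, 1.68% and 2.85% of kept cells) were removed as an alternative. The sums of each population in each run entered edgeR 4.0.16 (glmQLFit, glmQLFTest, TMM scaling, filterByExpr), blocked by run, with p adjusted by Benjamini-Hochberg, where each population had at least 10 cells in every run. The labels do not tie animals to runs, so p-values concern runs and do not measure the spread between animals. Both sums of a run come from 1 library, and their deviations correlated at 0.11 to 0.78 across genes. For the 7 populations compared with reference microglia, edgeR gave a gene's own spread between runs no weight. SE and p there rest on a spread pooled over genes. They can be too small for a gene whose runs differ more than that. In the other comparisons a gene's own spread entered in part. The median fitted change of all genes was between -0.33 (Ccl3 Ccl4-high cells) and 0.0011. The test was also run on counts simulated with the same spread for all genes and no run effect. That cannot show how it behaves where genes differ in their spread between runs. Ratios and levels were described without a test, and thinning drew 2000 UMIs from each cell. Intervals are at 95% and, like the limit of 3 UMIs used for a 0, cover counting error only.

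All 9 members were named. Other complement genes were named at 20 CPM or more in reference microglia, or if called with a log2 change of at least 1 and 20 CPM in the higher population, and called genes of smaller change were named where they met the first rule. C1ra and C2 in reference microglia were named after their values were seen. Of the list, 1 gene is not reported here. Likeness took the leading 5 genes for C1q and 3 for other members. Gene IDs matched GENCODE M21 for 31011 of 31053.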

Additional observations from a re-analysis of the deposited data

How the results depend on the processing

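Alternatives covered scaling by DESeq2's size factors, no filter on low counts, DESeq2's Wald test, no replicate block, each run left out, stricter cells, cells thinned to 2000 UMIs before gating, 1 more marker per gate, removal of cells with Xist and Y-linked UMIs, and all other kept cells as reference. Gates with 1 fewer marker and gated cells with few microglial UMIs were added after seeing the data. In border-associated, disease-associated and Ccl3 Ccl4-high cells, each call of C3ar1, C5ar1, Itgam, C4b and C3 given above was kept with its direction under every alternative in which the gene could be tested. C3 in border-associated macrophages was not tested with thinned cells, where 3 members were called higher and 2 lower. The number of members called moved by over 1.5 times in 4 comparisons. In MHC class II-high cells it was 4 with 1 more marker per gate. In cycling cells it was 4 with no replicate block, with thinned cells and with 1 fewer marker, and 4 to 5 when a run was left out. In interferon-responsive cells it was 0 with stricter cells, thinned cells, Xist and Y-linked cells removed, all other cells as reference or 1 fewer marker, and 0 to 1 when a run was left out. In Ccl3 Ccl4-high cells it was 5 with thinned cells, where C1qa (-0.50), C1qc (-0.54) and Itgam (-1.10) passed as lower; thinning came before gating, so fewer cells met the gate (11, 14 and 11). The replicate block changed no other number of members called. Counts over all genes moved more, by over 1.5 times in 38 of 108 fits: they ran from 617 to 1911 (border-associated, 1510 as reported), 474 to 1990 (MHC class II-high, 1388), 722 to 2061 (cycling, 2130), 128 to 278 (interferon-responsive, 261), 749 to 2143 (disease-associated, 1755), 92 to 387 (Ccl3 Ccl4-high, 304), 23 to 123 (Emp3 Fxyd5 Tnfsf13b-positive, 67), 60 to 202 (disease-associated against Ccl3 Ccl4-high, 193) and 5 to 146 (sex-linked transcripts, 54).

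The C1qb to C1qa ratio in reference microglia was 0.838 with thinned cells, against 0.844 ± 0.005. Some changes switched sign, none past the threshold with the new sign. C1qa in border-associated macrophages was 0.034 with DESeq2's size factors and with the Wald test, -0.047 to 0.018 when a run was left out and 0.0061 without Xist and Y-linked cells. In disease-associated cells C1qa was 0.028 under both DESeq2 settings, and C1qc was 0.053 under both, -0.041 to 0.0086 when a run was left out and 0.012 with 1 fewer marker. C3ar1 in cycling cells was 0.058 with 1 fewer marker, and between disease-associated and Ccl3 Ccl4-high cells it was -0.20 to 0.44 when a run was left out and -0.45 with 1 fewer marker. Of 369 further values, for changes given above as levels only, 39 switched sign and 0 of those passed the threshold. The cause was not tested in any of these.

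Too few cells were left for thinned cells or 1 more marker in disease-associated cells, in their comparison with Ccl3 Ccl4-high cells and in Emp3 Fxyd5 Tnfsf13b-positive cells, and for MHC class II-high cells with few microglial UMIs. Immediate early-high cells and cells carrying astrocyte transcripts had under 10 cells in a run and were not tested. C4b and C3 rest on few UMIs outside border-associated macrophages, so depth limits them most.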
